A study of Mus musculus with 20 samples.

Results

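The genes described here are 40 components of the autophagy machinery, chosen by name from a list and read in 20 messenger RNA libraries of mouse liver. The choice was made with earlier results of these data known, which limits comparisons of their counts with the shares of all genes. All 40 had 1 row in the deposited count table and 1 in the deposited TPM table, out of 55487 gene rows with counts, and all 40 passed the filter on low counts that left 16312 genes for testing. They fall into 8 roles: the ULK initiation complex (Ulk1, Ulk2, Atg13, Atg101, Rb1cc1), the class III PI3-kinase complex (Becn1, Pik3c3, Pik3r4, Atg14, Uvrag), WIPI, ATG2 and ATG9 proteins (Wipi1, Wipi2, Atg2a, Atg2b, Atg9a), the conjugation enzymes and their substrates (Atg3, Atg4a, Atg4b, Atg4c, Atg4d, Atg5, Atg7, Atg10, Atg12, Atg16l1), the ATG8 proteins (Map1lc3a, Map1lc3b, Gabarap, Gabarapl1, Gabarapl2), soluble cargo receptors (Sqstm1, Nbr1, Optn, Tax1bp1, Calcoco1), mitophagy receptors (Bnip3, Bnip3l, Fundc1) and 2 transcription factors of the TFEB family (Tfeb, Tfe3). The livers came from female C57BL/6N mice aged 15 weeks in 4 groups of 5: Plin2-null mice fasted for 24 h, Plin2-null mice fed chow, Plin2+/+ mice fasted for 24 h and Plin2+/+ mice fed chow. Plin2 encodes perilipin 2, the main coat protein of hepatocyte lipid droplets, and the labels do not say how the null allele was made. The labels of the 10 Plin2-null libraries give only the feeding state, and their genotype was read by elimination from the study's design text.

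Autophagy encloses cytoplasm in a double membrane, the autophagosome, and delivers it to lysosomes. The ULK kinase complex starts the process, the class III PI3-kinase marks the membrane with a lipid that WIPI proteins bind, and ATG2 and ATG9 proteins supply lipid for its growth. Ubiquitin-like conjugation then fixes ATG8 proteins to the membrane, where receptors dock with their cargo. Liver is a classical organ for the study of starvation-induced autophagy, and fasting drives it there both through nutrient-sensing kinases and through transcription factors such as TFEB, FOXO and PPARα. Messenger RNA levels do not measure autophagic flux.

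Total counts per library ran from 25506471 to 65579038. The targeted gene followed the genotype given to every library, which for the Plin2-null libraries was inferred and not labelled. Plin2 had 75.1 to 130.4 CPM (TMM-scaled counts relative to library size) in fasted Plin2-null livers, against 1092 to 1696 CPM in fasted Plin2+/+ livers. It had 15.3 to 32.1 CPM in fed Plin2-null livers, against 196 to 319 CPM in fed Plin2+/+ livers. The 8 hepatocyte markers summed to 82745 to 117125 CPM in fasted and 89239 to 110161 CPM in fed Plin2-null livers, and to 112712 to 163939 CPM in fasted and 94703 to 146296 CPM in fed Plin2+/+ livers. At an edgeR adjusted p under 0.05, 1 of these 8 markers rose and 2 fell on fasting in Plin2-null livers. In Plin2+/+ livers 4 of the 8 rose and 2 fell. Of all tested genes 18.0% rose and 18.1% fell in Plin2-null livers, and 20.9% rose and 21.7% fell in Plin2+/+ livers. The counts for minor cell types stand against those same shares. Of 7 Kupffer cell markers 4 fell in Plin2-null livers and 5 in Plin2+/+ livers, and of 5 cholangiocyte markers 1 and 3 fell. Of 7 sinusoidal endothelial markers 2 rose and 2 fell in each genotype. Of 6 lymphocyte markers 0 and 3 fell, and both tested pancreatic acinar genes fell in each genotype. Of 7 stellate cell markers 4 fell in each genotype. Their sum was 433 to 542 CPM in fasted and 435 to 581 CPM in fed Plin2-null livers, and 429 to 509.9 CPM in fasted and 406 to 701 CPM in fed Plin2+/+ livers, with overlapping ranges. The 5 neutrophil markers summed to 4.52 to 8.37 CPM in fasted and 1.01 to 2.89 CPM in fed Plin2-null livers, and to 2.36 to 3.04 CPM in fasted and 1.04 to 1.60 CPM in fed Plin2+/+ livers. Ly6g was at 0 in every library of the groups other than fasted Plin2-null livers. Of the 4 markers that could be tested, 3 rose with fasting in each genotype. The acinar list summed to 3.72 to 5.92 CPM in fasted and 15.1 to 27.9 CPM in fed Plin2-null livers, and to 2.74 to 4.25 CPM in fasted and 8.00 to 20.5 CPM in fed Plin2+/+ livers. Prss2 and Pnlip were at 0 in 3 of the 4 groups. In whole liver, fewer cells of a type and less RNA per cell cannot be told apart, and the part of these cell types in the results on autophagy genes was not tested. Some libraries also differed in how strongly their counts followed gene GC content: the difference between high-GC and low-GC genes was -0.73 and -0.71 on the log2 scale in fasted Plin2+/+ replicates 1 and 2, against -0.53 to 0.55 in the other 18 libraries.

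On the TPM scale, which is per transcript length and lets genes be compared, the machinery was dominated by a few members. Averaged over all 20 libraries, Gabarapl1, an ATG8 protein of the GABARAP branch, stood highest at 479 TPM, followed by the ubiquitin-binding receptor Sqstm1 (p62) at 221 TPM, the mitophagy receptor Bnip3 at 213 TPM, Gabarap at 189 TPM and the receptor Nbr1 at 84.8 TPM. Initiation and lipid kinase genes were far lower: Ulk2 averaged 21.8 TPM, Ulk1 18.0 TPM, Becn1 14.8 TPM, Pik3c3 11.1 TPM and Uvrag 5.48 TPM. The lowest member was Tfeb at 1.09 TPM. Within a group of 5 livers the median member had a coefficient of variation of 10.2% to 11.9%, against 17.2% to 20.5% for the median of all tested genes, and the members were not matched to all genes on count.

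Fasting raised most cargo receptors (Sqstm1, Optn, Tax1bp1, Calcoco1, Bnip3, Bnip3l), 3 of the ATG8 genes, Wipi1, Wipi2 and Atg2a in both genotypes, and lowered the kinase gene Ulk2 in both. In Plin2-null livers 17 of 40 members rose and 1 fell at an edgeR adjusted p under 0.05, and 22 did not pass; of all tested genes, 18.0% rose and 18.1% fell, or 36.1% in all. In Plin2+/+ livers 23 members rose, 3 fell and 14 did not pass, against 20.9% of all tested genes that rose and 21.7% that fell, or 42.6% in all. The median log2 fold change of the 40 members was 0.16 in Plin2-null and 0.33 in Plin2+/+ livers, and that of all tested genes was -0.01 in each. In Plin2-null livers every fasted library lay above every fed one for 13 members and below for 1 (12.6% and 11.8% of all tested genes), and in Plin2+/+ livers for 15 and 2 (13.2% and 13.5%).

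The 17 members that rose in both genotypes were Ulk1, Rb1cc1, Pik3c3, Wipi1, Wipi2, Atg2a, Atg5, Atg12, Map1lc3a, Map1lc3b, Gabarapl2, Sqstm1, Optn, Tax1bp1, Calcoco1, Bnip3 and Bnip3l. Atg14, Atg2b, Atg10, Gabarapl1, Nbr1 and Tfe3 passed as higher in Plin2+/+ livers alone, and Atg13 and Atg7 as lower there alone. Whether fasting acted differently in the genotypes is tested further on. Scaling mattered for the weaker calls. Scaled to library size alone, which shifted the median of all genes to -0.21 in Plin2-null and -0.16 in Plin2+/+ livers, 10 members rose and 5 fell in Plin2-null livers (of all genes 8.44% and 26.0%) and 14 rose and 5 fell in Plin2+/+ livers (11.4% and 25.6%). For 7 members the rise in Plin2-null livers was called under each of 21 alternatives (Map1lc3a, Map1lc3b, Sqstm1, Optn, Tax1bp1, Bnip3, Bnip3l). In Plin2+/+ livers this held for 10 under each of 22 (Rb1cc1, Atg12, Map1lc3b, Gabarapl1, Sqstm1, Optn, Tax1bp1, Calcoco1, Bnip3, Bnip3l). The fall of Ulk2 was called under each of the same alternatives in both genotypes. No called value changed sign under another scaling.

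**Figure D1:**
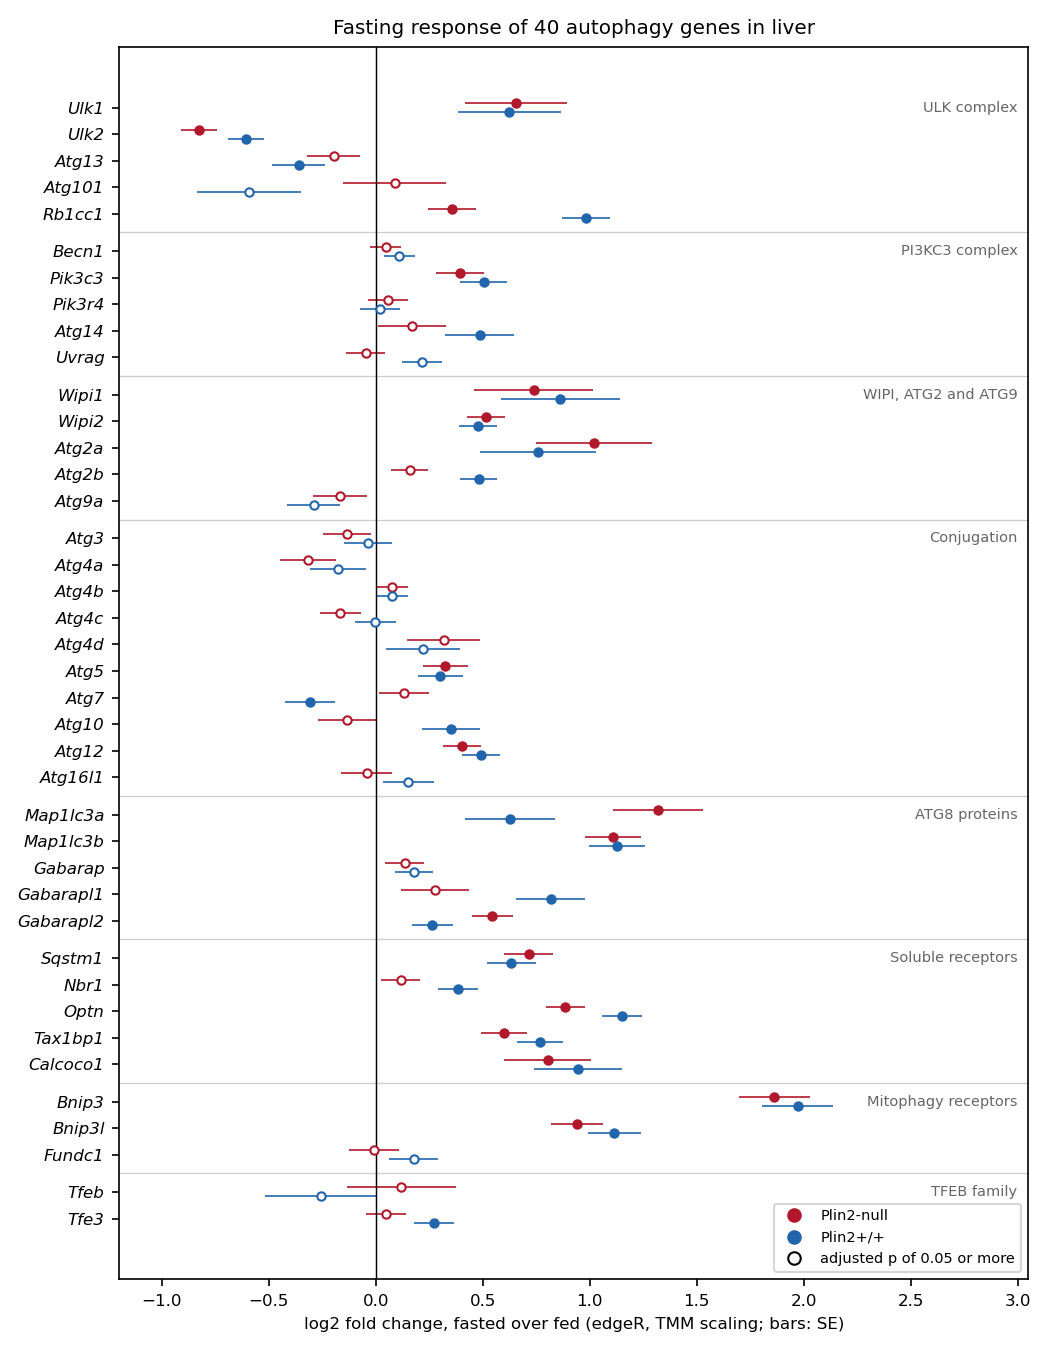
Log2 fold change of each of the 40 autophagy genes, fasted over fed, by role (horizontal axis: edgeR log2 fold change with TMM scaling, bars are standard errors, n = 5 livers per group). Red points are Plin2-null and blue points Plin2+/+ livers, and open points have an adjusted p of 0.05 or more. Bnip3 stands farthest to the right, at 1.86 in Plin2-null and 1.97 in Plin2+/+ livers, and Ulk2 farthest to the left among called members, at -0.83 and -0.61.

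RefSeq promoters (GRCm38.p6, 250 bases before to 50 after the start) were given for 33 of the 40 members, and they are shown for 4 genes because the E-box is the core of the element that TFEB and TFE3 bind. The E-box CACGTG, read on both strands, stood in the promoters of 5 members, Atg14, Atg3, Atg5, Atg7 and Bnip3 (15.2% of 33), against 8.09% of 27025 genes. The windows of Atg7 and Atg14 lie wholly inside the annotated genes (chr6:114643097-114860614, plus strand, and chr14:47540893-47570649, minus strand). They therefore belong to starts within those genes. Capitals mark the E-box.
Bnip3 (chr7:138909569-138909654, minus strand): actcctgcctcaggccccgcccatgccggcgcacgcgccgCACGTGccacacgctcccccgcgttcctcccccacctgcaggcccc
Atg5 (chr10:44268285-44268338, plus strand): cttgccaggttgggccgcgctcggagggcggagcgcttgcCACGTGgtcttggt
Atg7 (chr6:114670924-114671009, plus strand): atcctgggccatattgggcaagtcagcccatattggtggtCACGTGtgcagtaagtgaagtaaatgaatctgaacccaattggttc
Atg3 (chr16:45158695-45158780, plus strand): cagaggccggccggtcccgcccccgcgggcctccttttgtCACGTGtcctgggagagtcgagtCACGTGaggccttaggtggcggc
The second E-box of Atg3 lies in TCACGTGA, the centre of the CLEAR element, which contains the E-box letters and occurred in 3.03% of member promoters against 1.12% of all. The cAMP response element TGACGTCA was found in Atg5 alone (3.03% against 2.03%), and GTAAACA (a FOXO site), ATTGCATCA (a C/EBP-ATF response element) and a DR1 site in none, against 4.05%, 0.222% and 0.0481% of all genes. Of the 5 genes with an E-box, Bnip3 and Atg5 rose on fasting in both genotypes, as did 17 of all 40 members. Atg14 rose and Atg7 fell in Plin2+/+ livers alone, and Atg3 passed in neither genotype. No promoter was given for Rb1cc1, Becn1, Pik3c3, Atg12, Atg16l1, Map1lc3a and Bnip3l, so their windows could not be read. A match of letters is a description of these windows and shows no binding.

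Within the ULK complex the 2 kinase genes moved in opposite directions. Ulk1 (GRCm38, ENSMUSG00000029512, chr5:110784488-110810097, minus strand) encodes the kinase that is inhibited by mTORC1 and activated by AMPK, and Ulk2 (ENSMUSG00000004798, chr11:61775649-61855073, minus strand) its close relative. Ulk2 had 35.9, 39.8, 32.8, 36.9 and 31.3 CPM in fasted Plin2-null livers, against 67.8, 60.7, 61.5, 62.9 and 60.4 CPM in fed Plin2-null livers. In Plin2+/+ livers the values were 45.4, 44.1, 35.2, 40.5 and 39.0 CPM after fasting, against 65.6, 59.0, 60.9, 62.3 and 63.3 CPM in the fed state. Every fasted library lay below every fed library in both genotypes, with the fed values within a narrow band. Ulk2 fell, with log2 fold changes of -0.83 (SE 0.09, edgeR adjusted p = 1.44e-07) in Plin2-null and -0.61 (SE 0.08, edgeR adjusted p = 6.40e-06) in Plin2+/+ livers. Ulk1 had 56.6, 42.9, 61.8, 67.8 and 54.5 CPM in fasted Plin2-null livers, against 37.2, 55.8, 35.7, 25.0 and 26.4 CPM in fed Plin2-null livers. Fasted Plin2+/+ livers had 44.5, 46.1, 65.6, 51.1 and 76.1 CPM, against 23.2, 29.3, 29.8, 44.8 and 56.7 CPM in fed Plin2+/+ livers. The groups overlapped for Ulk1, whose fed values were spread widely, with fed Plin2-null replicate 2 and fed Plin2+/+ replicates 4 and 5 inside the fasted range. Ulk1 rose, with log2 fold changes of 0.66 (SE 0.24, edgeR adjusted p = 0.0382) in Plin2-null and 0.62 (SE 0.24, edgeR adjusted p = 0.0416) in Plin2+/+ livers. In Plin2-null livers the call was lost without any 1 of fasted Plin2-null replicates 1, 3, 4 and 5 and fed Plin2-null replicates 1, 3, 4 and 5 (log2 fold change 0.55 to 0.87 over single libraries left out, adjusted p up to 0.0965), and in Plin2+/+ livers without any 1 of fasted Plin2+/+ replicates 3 and 5 and fed Plin2+/+ replicates 1, 2 and 3 (0.50 to 0.83, adjusted p up to 0.114). The ratio of Ulk1 to Ulk2 on the TPM scale was 1.45, 0.993, 1.73, 1.70 and 1.60 in fasted Plin2-null livers, against 0.505, 0.846, 0.535, 0.366 and 0.403 in fed ones. In Plin2+/+ livers it was 0.903, 0.963, 1.71, 1.16 and 1.80 after fasting, against 0.326, 0.458, 0.451, 0.663 and 0.825 in the fed state, so that the fasted and fed ranges did not overlap in either genotype and Ulk2 was the more abundant of the pair in all 10 fed livers.

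Rb1cc1 (ENSMUSG00000025907, chr1:6206197-6276648, plus strand) encodes FIP200, the scaffold that holds the ULK complex together. Rb1cc1 had 56.3, 51.5, 53.6, 53.6 and 39.6 CPM in fasted Plin2-null livers, against 41.0, 36.7, 39.8, 43.1 and 38.4 CPM in fed Plin2-null livers. The Plin2+/+ values were 82.7, 92.1, 86.3, 64.5 and 60.6 CPM in fasted and 39.6, 36.9, 38.9, 39.0 and 41.0 CPM in fed livers. In Plin2+/+ livers every fasted library lay above the fed range, with replicates 1 to 3 well above replicates 4 and 5, whereas in Plin2-null livers replicate 5 fell among the fed libraries. The log2 fold change was 0.36 (SE 0.11, edgeR adjusted p = 0.0160) in Plin2-null and 0.98 (SE 0.11, edgeR adjusted p = 4.31e-07) in Plin2+/+ livers. With each library's trend with GC content removed these values were 0.47 (edgeR adjusted p = 3.61e-04) and 0.89 (edgeR adjusted p = 1.05e-07). The gene 4732440D04Rik overlaps Rb1cc1 on the opposite strand, and no source used here gives the strand setting of the counting.

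The 2 remaining subunits were called at most once. Atg13, which links ULK kinases to FIP200, averaged 32.6 ± 2.65 CPM in fasted and 37.4 ± 8.45 CPM in fed Plin2-null livers and 34.9 ± 2.53 CPM in fasted and 44.9 ± 5.19 CPM in fed Plin2+/+ livers (SD, n = 5 each). It fell in Plin2+/+ livers by 0.36 on the log2 scale (SE 0.12, edgeR adjusted p = 0.0233), a call lost without any 1 of fasted Plin2+/+ replicate 1 and fed Plin2+/+ replicates 2 and 5 (-0.41 to -0.30, adjusted p up to 0.0699). In Plin2-null livers its log2 fold change was -0.20 (SE 0.13, edgeR adjusted p = 0.228). Atg101, which stabilises ATG13, did not pass in either genotype, at 0.09 (SE 0.24, edgeR adjusted p = 0.804) in Plin2-null and -0.59 (SE 0.24, edgeR adjusted p = 0.0553) in Plin2+/+ livers.

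In the class III PI3-kinase complex the catalytic subunit alone rose in both genotypes. Pik3c3 encodes VPS34, the lipid kinase that makes phosphatidylinositol 3-phosphate. Pik3c3 had 22.3, 24.4, 26.3, 18.9 and 19.7 CPM in fasted Plin2-null livers, against 16.2, 18.1, 19.2, 18.7 and 12.7 CPM in fed Plin2-null livers. Among Plin2+/+ livers, fasted ones had 23.9, 22.9, 25.1, 22.8 and 23.2 CPM and fed ones 15.5, 15.4, 16.7, 18.0 and 17.6 CPM. Fasted and fed Plin2+/+ libraries did not overlap, and in Plin2-null livers fasted replicate 4 lay just under the highest fed library. Pik3c3 rose, with log2 fold changes of 0.39 (SE 0.11, edgeR adjusted p = 0.00787) in Plin2-null and 0.50 (SE 0.11, edgeR adjusted p = 8.72e-04) in Plin2+/+ livers. Becn1 (the scaffold beclin 1) and Pik3r4 (the regulatory subunit VPS15) were not called: the log2 fold changes of Becn1 were 0.05 (SE 0.07, edgeR adjusted p = 0.657) and 0.11 (SE 0.07, edgeR adjusted p = 0.234), and those of Pik3r4 0.06 (SE 0.09, edgeR adjusted p = 0.667) and 0.02 (SE 0.09, edgeR adjusted p = 0.887), in Plin2-null and in Plin2+/+ livers. Their levels were 37.9 to 43.9 and 19.5 to 21.8 CPM in fasted Plin2-null livers, and 38.1 to 42.5 and 17.8 to 22.3 CPM in fed ones.

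Atg14, which directs the complex to autophagosome formation, had 7.83, 13.9, 11.3, 14.2 and 9.66 CPM in fasted and 10.0, 11.1, 11.6, 10.6 and 7.31 CPM in fed Plin2-null livers. In Plin2+/+ livers it had 14.9, 17.8, 17.5, 17.2 and 16.1 CPM after fasting, against 9.22, 10.5, 11.9, 12.5 and 15.6 CPM in the fed state. The fasted Plin2+/+ libraries lay close together, with fed replicate 5 inside their range, while the fasted Plin2-null libraries ran from within the fed range to above it. Atg14 rose in Plin2+/+ livers by 0.49 (SE 0.16, edgeR adjusted p = 0.0177) on the log2 scale, a call lost without fed Plin2+/+ replicate 1 (adjusted p = 0.0529, log2 fold change over single libraries left out 0.41 to 0.60), and its value in Plin2-null livers was 0.17 (SE 0.16, edgeR adjusted p = 0.438). Uvrag, which replaces ATG14 in the complex that acts later, on endosomes and lysosome fusion, passed in neither: -0.05 (SE 0.09, edgeR adjusted p = 0.719) in Plin2-null and 0.22 (SE 0.09, edgeR adjusted p = 0.0654) in Plin2+/+ livers.

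Of the genes that read the lipid mark and enlarge the membrane, Wipi1, Wipi2 and Atg2a rose in both genotypes. Wipi2 encodes the protein that recruits ATG16L1 to the new membrane. Wipi2 had 83.7, 86.8, 93.1, 96.7 and 85.6 CPM in fasted Plin2-null livers, against 70.5, 61.4, 64.6, 59.1 and 56.6 CPM in fed Plin2-null livers. With Plin2 intact, Wipi2 had 85.7, 85.9, 100.05, 85.5 and 100.5 CPM in fasted livers, against 62.9, 66.1, 66.6, 58.3 and 74.6 CPM in fed livers. Fasted libraries lay above all fed libraries in both genotypes, and the log2 fold change was 0.51 (SE 0.09, edgeR adjusted p = 1.03e-04) in Plin2-null and 0.48 (SE 0.09, edgeR adjusted p = 1.67e-04) in Plin2+/+ livers. Atg2a encodes 1 of 2 lipid transfer proteins of the pathway. Atg2a had 64.1, 41.0, 70.0, 76.0 and 54.2 CPM in fasted Plin2-null livers, against 37.0, 36.0, 32.5, 20.5 and 24.4 CPM in fed Plin2-null livers. In Plin2+/+ livers the values were 30.9, 31.2, 74.0, 36.9 and 84.7 CPM after fasting, against 24.0, 33.3, 28.1, 27.6 and 39.4 CPM in the fed state. The fasted Plin2-null libraries all lay above the fed ones, whereas in Plin2+/+ livers fasted replicates 3 and 5 were high and the other 3 lay within the fed range. Atg2a rose, with log2 fold changes of 1.02 (SE 0.27, edgeR adjusted p = 0.00624) in Plin2-null and 0.76 (SE 0.27, edgeR adjusted p = 0.0297) in Plin2+/+ livers, where the call was lost without any 1 of fasted Plin2+/+ replicates 3 and 5 and fed Plin2+/+ replicates 1, 3 and 4 (0.51 to 0.90, adjusted p up to 0.113).

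Atg2b, the other lipid transfer gene, averaged 41.8 ± 3.19 CPM in fasted and 37.4 ± 1.60 CPM in fed Plin2-null livers, and 51.7 ± 5.44 CPM in fasted and 37.1 ± 2.71 CPM in fed Plin2+/+ livers (SD, n = 5 each). Its log2 fold change was 0.16 (SE 0.09, edgeR adjusted p = 0.160) in Plin2-null livers, where it did not pass, and 0.48 (SE 0.09, edgeR adjusted p = 1.23e-04) in Plin2+/+ livers. Wipi1 encodes the WIPI protein of early autophagosomes. Wipi1 had 18.7, 12.2, 22.2, 17.8 and 22.4 CPM in fasted Plin2-null livers, against 12.8, 11.9, 12.5, 8.25 and 10.4 CPM in fed Plin2-null livers. Fasted Plin2+/+ livers had 13.5, 20.9, 45.2, 14.7 and 21.6 CPM, against 9.40, 14.9, 12.0, 9.18 and 18.2 CPM in fed Plin2+/+ livers. Fasted Plin2+/+ replicate 3 had more than any other library and replicates 1 and 4 lay within the fed range, and in Plin2-null livers fasted replicate 2 lay among the fed libraries. Wipi1 rose by 0.74 (SE 0.28, edgeR adjusted p = 0.0439) on the log2 scale in Plin2-null and by 0.86 (SE 0.28, edgeR adjusted p = 0.0165) in Plin2+/+ livers. The call in Plin2+/+ livers was lost without fasted Plin2+/+ replicate 3 (log2 fold change 0.47, adjusted p = 0.0844), and that in Plin2-null livers without any 1 of fasted Plin2-null replicates 1, 3, 4 and 5 and fed Plin2-null replicates 1, 2, 3, 4 and 5 (0.65 to 0.86, adjusted p up to 0.109). Atg9a, the transmembrane lipid scramblase, was not called, at -0.17 (SE 0.13, edgeR adjusted p = 0.314) in Plin2-null and -0.29 (SE 0.13, edgeR adjusted p = 0.0658) in Plin2+/+ livers.

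Of the 10 genes of the conjugation system, 2 rose and 0 fell in Plin2-null livers, against 18.0% and 18.1% of all tested genes. In Plin2+/+ livers 3 rose and 1 fell, against 20.9% and 21.7%, or 42.6% in all. The share of rises in Plin2-null livers and that of calls in either direction in Plin2+/+ livers were near those of all genes. The median log2 fold changes were 0.02 and 0.11. Atg12 encodes the ubiquitin-like protein that is joined to ATG5. Atg12 had 28.9, 33.3, 36.0, 33.3 and 30.0 CPM in fasted Plin2-null livers, against 27.6, 22.2, 23.0, 24.4 and 25.0 CPM in fed Plin2-null livers. The Plin2+/+ values were 34.5, 38.7, 35.6, 33.3 and 33.1 CPM in fasted and 27.4, 26.0, 26.0, 23.0 and 22.4 CPM in fed livers. Every fasted library exceeded every fed one in both genotypes. Atg12 rose, with log2 fold changes of 0.40 (SE 0.09, edgeR adjusted p = 0.00119) in Plin2-null and 0.49 (SE 0.09, edgeR adjusted p = 1.28e-04) in Plin2+/+ livers. Its partner Atg5 averaged 36.1 ± 1.29 CPM in fasted and 28.8 ± 4.06 CPM in fed Plin2-null livers, and 33.6 ± 2.56 CPM in fasted and 27.3 ± 4.07 CPM in fed Plin2+/+ livers (SD, n = 5 each). It rose by 0.33 (SE 0.11, edgeR adjusted p = 0.0197) on the log2 scale in Plin2-null and by 0.30 (SE 0.11, edgeR adjusted p = 0.0254) in Plin2+/+ livers; the calls were lost without any 1 of fed Plin2-null replicates 1 and 2 (adjusted p up to 0.0603) and without any 1 of fasted Plin2+/+ replicate 2 and fed Plin2+/+ replicate 4 (adjusted p up to 0.0972).

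Atg7, the E1-like enzyme that activates both ubiquitin-like systems, had 27.3, 33.4, 33.8, 27.3 and 24.4 CPM in fasted and 25.1, 31.5, 24.6, 25.8 and 26.3 CPM in fed Plin2-null livers. Its values in Plin2+/+ livers were 19.7, 22.3, 24.8, 21.4 and 27.8 CPM after fasting and 26.0, 31.4, 34.3, 25.3 and 26.5 CPM in the fed state. The ranges overlapped in both genotypes, with 4 of 5 fasted Plin2+/+ libraries under the fed ones and fasted Plin2-null replicates 2 and 3 above them. Atg7 fell in Plin2+/+ livers, with a log2 fold change of -0.31 (SE 0.12, edgeR adjusted p = 0.0400), and the call was lost without any 1 of fasted Plin2+/+ replicates 1, 2 and 4 and fed Plin2+/+ replicates 2 and 3 (-0.38 to -0.23, adjusted p up to 0.131). In Plin2-null livers the value was 0.13 (SE 0.12, edgeR adjusted p = 0.405). Atg10, the E2-like enzyme of ATG12, was scarce, at 2.54 to 3.61 CPM in fasted and 2.89 to 4.28 CPM in fed Plin2-null livers and 3.43 to 4.23 CPM in fasted and 2.82 to 3.31 CPM in fed Plin2+/+ livers. Its log2 fold change was -0.14 (SE 0.14, edgeR adjusted p = 0.458) in Plin2-null livers and, as a call, 0.35 (SE 0.13, edgeR adjusted p = 0.0399) in Plin2+/+ livers, lost without any 1 of fasted Plin2+/+ replicates 1, 2 and 3 and fed Plin2+/+ replicates 2, 3, 4 and 5 (adjusted p up to 0.101).

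Atg3 (the E2-like enzyme of ATG8 proteins), Atg16l1 (the partner that places the ATG12-ATG5 conjugate on the membrane) and the 4 ATG4 proteases, which prime and release ATG8 proteins, passed in neither genotype. Their log2 fold changes ran from -0.32 to 0.32 in Plin2-null and from -0.18 to 0.22 in Plin2+/+ livers, with smallest edgeR adjusted p-values of 0.0612 and 0.286. Among the proteases Atg4b averaged 10.4 ± 2.22 TPM in fasted and 11.9 ± 0.719 TPM in fed Plin2-null livers, and 10.8 ± 1.52 TPM in fasted and 11.5 ± 1.00 TPM in fed Plin2+/+ livers (SD, n = 5 each). Over all libraries Atg4a averaged 10.5 TPM, Atg4c 9.58 TPM and Atg4d 4.13 TPM.

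All 5 ATG8 genes had positive log2 fold changes on fasting in both genotypes, and 3 rose in Plin2-null livers (18.0% of all tested genes rose) and 4 in Plin2+/+ livers (20.9%). Map1lc3b (ENSMUSG00000031812, chr8:121590361-121598760, plus strand) encodes LC3B, the usual marker protein of autophagosomes. Map1lc3b had 86.0, 95.8, 97.3, 110.2 and 109 CPM in fasted Plin2-null livers, against 49.1, 49.6, 49.9, 41.9 and 40.4 CPM in fed Plin2-null livers. Among Plin2+/+ livers, fasted ones had 89.3, 118, 159, 105 and 116 CPM and fed ones 42.6, 53.5, 56.0, 62.4 and 55.3 CPM. No fasted library came near the fed range, and fasted Plin2+/+ replicate 3 was the highest. The log2 fold change was 1.11 (SE 0.13, edgeR adjusted p = 9.34e-07) in Plin2-null and 1.13 (SE 0.13, edgeR adjusted p = 5.44e-07) in Plin2+/+ livers. Map1lc3a encodes LC3A, a close relative. Map1lc3a had 10.3, 13.9, 22.7, 13.9 and 17.9 CPM in fasted Plin2-null livers, against 6.09, 5.74, 7.84, 5.40 and 6.38 CPM in fed Plin2-null livers. With Plin2 intact, Map1lc3a had 7.89, 10.4, 10.1, 16.0 and 12.2 CPM in fasted livers, against 5.39, 8.22, 7.98, 5.32 and 9.57 CPM in fed livers. In Plin2-null livers the ranges did not overlap, with fasted replicate 3 highest, and in Plin2+/+ livers fasted replicate 1 lay within the fed range. Map1lc3a rose by 1.32 (SE 0.21, edgeR adjusted p = 4.33e-05) on the log2 scale in Plin2-null livers and by 0.63 (SE 0.21, edgeR adjusted p = 0.0189) in Plin2+/+ livers, the second call being lost without any 1 of fasted Plin2+/+ replicate 4 and fed Plin2+/+ replicates 1 and 4 (0.48 to 0.75, adjusted p up to 0.0689).

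Gabarapl1 (ENSMUSG00000030161, chr6:129533160-129542346, plus strand) was the most abundant of the 40 genes. Gabarapl1 had 291, 451, 288, 492 and 318 CPM in fasted Plin2-null livers, against 297, 309, 346, 327 and 239.9 CPM in fed Plin2-null livers. In Plin2+/+ livers the values were 587, 575, 543, 587 and 473 CPM after fasting, against 220.0, 295, 364, 308 and 382 CPM in the fed state. Fasted Plin2+/+ libraries all lay above the fed ones. In fasted Plin2-null livers replicates 2 and 4 were high and the other 3 lay within the fed range. The log2 fold change was 0.28 (SE 0.16, edgeR adjusted p = 0.185) in Plin2-null livers, which did not pass, and 0.82 (SE 0.16, edgeR adjusted p = 3.06e-04) in Plin2+/+ livers. Gabarapl2 (GATE-16) rose by 0.55 (SE 0.10, edgeR adjusted p = 1.40e-04) on the log2 scale in Plin2-null and by 0.26 (SE 0.10, edgeR adjusted p = 0.0317) in Plin2+/+ livers, where the call was lost without any 1 of fasted Plin2+/+ replicates 2, 3, 4 and 5 and fed Plin2+/+ replicates 3 and 4 (adjusted p up to 0.112). Gabarap, the second of the group in TPM, was not called, at 0.13 (SE 0.09, edgeR adjusted p = 0.252) and 0.18 (SE 0.09, edgeR adjusted p = 0.110). The genes 1700101I11Rik and Gm44243 overlap Gabarapl1 and Zcchc14 and Gm20388 overlap Map1lc3b in the annotation, so reads in the shared stretches may belong to either.

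Summed over the 5 genes, ATG8 messenger RNA came to 592, 769.5, 420.2, 977 and 729 TPM in fasted Plin2-null livers, against 636, 714, 707, 729.6 and 575 TPM in fed ones. In Plin2+/+ livers it came to 1111, 839, 863, 957 and 943 TPM after fasting, against 569, 648, 665, 695 and 772 TPM in the fed state. The fasted Plin2+/+ sums all lay above the fed ones, while the fasted Plin2-null sums ran from the lowest to the second highest of all 20. Gabarapl1 made up 60.9 ± 5.56% of the sum in fasted and 62.9 ± 2.97% in fed Plin2-null livers, and 68.9 ± 2.35% in fasted and 60.6 ± 4.77% in fed Plin2+/+ livers (SD, n = 5 each). The 2 LC3 genes were a small part: Map1lc3b had 4.53 ± 0.635% in fasted and 2.58 ± 0.236% in fed Plin2-null livers, and 3.96 ± 0.957% in fasted and 2.82 ± 0.261% in fed Plin2+/+ livers. Map1lc3a had 4.64 ± 1.83% in fasted and 2.24 ± 0.350% in fed Plin2-null livers, and 2.41 ± 0.617% in fasted and 2.41 ± 0.432% in fed Plin2+/+ livers. TPM values are scaled to the whole library and carry no TMM scaling.

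**Figure D2:**
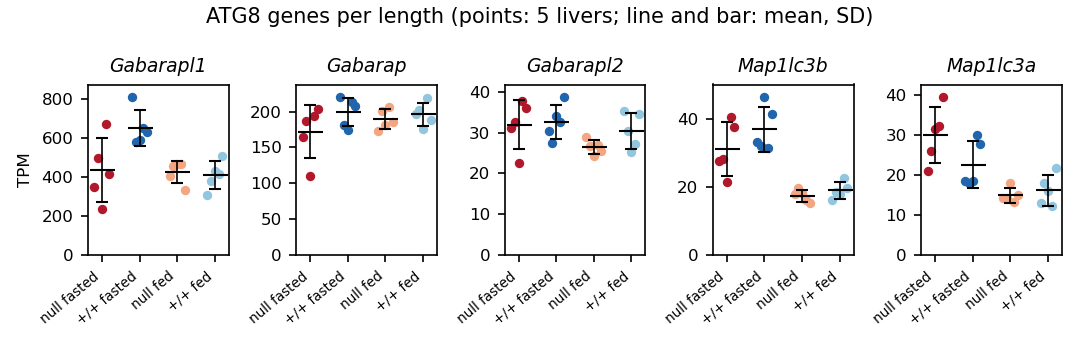
TPM of the 5 ATG8 genes in each liver (vertical axis: TPM, linear from 0, its range set for each gene). Points are the 5 livers of a group, and the line and bar give mean and SD. Gabarapl1 averages 433 ± 164 TPM in fasted Plin2-null livers, against 651 ± 92.7 TPM in fasted Plin2+/+ livers, and Map1lc3b lies higher in the fasted than in the fed groups of both genotypes.

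The soluble receptors, which bind ubiquitin or cargo on one side and ATG8 proteins on the other, rose in 4 of 5 cases in Plin2-null livers, where 18.0% of all tested genes rose, and in 5 of 5 in Plin2+/+ livers, where 20.9% rose. Their median log2 fold changes were 0.71 and 0.77. Optn (ENSMUSG00000026672, chr2:5020642-5064051, minus strand) encodes optineurin, a receptor for damaged mitochondria and bacteria. Optn had 125, 120.3, 126, 125 and 134 CPM in fasted Plin2-null livers, against 73.6, 70.6, 70.5, 62.5 and 64.2 CPM in fed Plin2-null livers. Fasted Plin2+/+ livers had 138, 135, 157, 121 and 129 CPM, against 66.9, 59.7, 56.2, 53.8 and 69.9 CPM in fed Plin2+/+ livers. The fasted and fed ranges lay far apart in both genotypes, and fasted Plin2+/+ replicate 3 was the highest. Optn rose, with log2 fold changes of 0.88 (SE 0.09, edgeR adjusted p = 1.52e-07) in Plin2-null and 1.15 (SE 0.09, edgeR adjusted p = 3.67e-09) in Plin2+/+ livers. Sqstm1 (ENSMUSG00000015837, chr11:50199366-50210827, minus strand) encodes p62, the receptor of ubiquitinated aggregates, itself degraded by autophagy. Sqstm1 had 356, 386, 427, 377 and 299 CPM in fasted Plin2-null livers, against 233, 252, 219.7, 224 and 197 CPM in fed Plin2-null livers. The Plin2+/+ values were 312, 359, 407, 383 and 362 CPM in fasted and 194, 257, 212, 236 and 277 CPM in fed livers. No fasted library overlapped the fed ones in either genotype. Sqstm1 rose, with log2 fold changes of 0.71 (SE 0.11, edgeR adjusted p = 4.37e-05) in Plin2-null and 0.63 (SE 0.11, edgeR adjusted p = 1.23e-04) in Plin2+/+ livers. On the other strand 4930551O13Rik overlaps Optn and Mrnip overlaps Sqstm1. Further members, among them Uvrag, Bnip3, Atg7, Atg14, Atg2b and Tax1bp1, also overlap other annotated genes.

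Tax1bp1 encodes a receptor that works with NBR1 and p62 on protein aggregates. Tax1bp1 had 147, 156, 169.9, 133 and 135 CPM in fasted Plin2-null livers, against 98.4, 91.2, 93.9, 109.7 and 96.0 CPM in fed Plin2-null livers. Among Plin2+/+ livers, fasted ones had 153, 195, 194, 155 and 137 CPM and fed ones 110.1, 89.2, 101, 89.7 and 98.5 CPM. Fasted libraries lay above all fed ones in both genotypes, with fasted Plin2+/+ replicates 2 and 3 highest. The log2 fold change was 0.60 (SE 0.11, edgeR adjusted p = 1.54e-04) in Plin2-null and 0.77 (SE 0.11, edgeR adjusted p = 6.29e-06) in Plin2+/+ livers. Calcoco1 encodes a receptor for the endoplasmic reticulum and Golgi. Calcoco1 had 35.2, 33.1, 34.5, 45.3 and 41.8 CPM in fasted Plin2-null livers, against 21.9, 28.8, 26.8, 15.9 and 15.4 CPM in fed Plin2-null livers. With Plin2 intact, Calcoco1 had 30.1, 33.7, 46.6, 36.8 and 46.5 CPM in fasted livers, against 12.7, 16.7, 19.3, 22.3 and 29.6 CPM in fed livers. Its ranges did not overlap either, though in Plin2+/+ livers fasted replicate 1 was barely above fed replicate 5. Calcoco1 rose by 0.80 (SE 0.20, edgeR adjusted p = 0.00396) on the log2 scale in Plin2-null and by 0.95 (SE 0.20, edgeR adjusted p = 8.22e-04) in Plin2+/+ livers. Nbr1, a receptor of aggregates and peroxisomes, averaged 226 ± 23.2 CPM in fasted and 209 ± 13.1 CPM in fed Plin2-null livers, and 277 ± 20.2 CPM in fasted and 212 ± 18.1 CPM in fed Plin2+/+ livers (SD, n = 5 each). It passed in Plin2+/+ livers, at 0.38 (SE 0.09, edgeR adjusted p = 0.00202), and not in Plin2-null livers, at 0.12 (SE 0.09, edgeR adjusted p = 0.351). The ratio of Sqstm1 to Nbr1 in TPM was 3.35 ± 0.350 in fasted and 2.21 ± 0.213 in fed Plin2-null livers, and 2.70 ± 0.305 in fasted and 2.27 ± 0.315 in fed Plin2+/+ livers (SD, n = 5 each).

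The largest rise of the 40 genes was that of Bnip3 (ENSMUSG00000078566, chr7:138890836-138909519, minus strand), a receptor in the outer mitochondrial membrane that is also a target of hypoxia signalling. Bnip3 had 285, 249, 301, 253 and 324 CPM in fasted Plin2-null livers, against 71.4, 62.5, 78.3, 93.4 and 82.3 CPM in fed Plin2-null livers. In Plin2+/+ livers the values were 295, 403, 513, 276 and 272 CPM after fasting, against 109, 83.6, 98.3, 72.8 and 84.6 CPM in the fed state. Every fasted library stood well above every fed one, and fasted Plin2+/+ replicates 2 and 3 exceeded all other libraries. The log2 fold change was 1.86 (SE 0.17, edgeR adjusted p = 1.96e-08) in Plin2-null and 1.97 (SE 0.17, edgeR adjusted p = 7.11e-09) in Plin2+/+ livers, which is 3.64-fold and 3.92-fold. Its relative Bnip3l (NIX), the receptor that clears mitochondria from maturing red cells, rose by a smaller fold. Bnip3l had 108, 93.9, 127, 100.02 and 119 CPM in fasted Plin2-null livers, against 55.4, 51.5, 63.0, 60.8 and 54.6 CPM in fed Plin2-null livers. Fasted Plin2+/+ livers had 113, 152, 172, 109 and 109 CPM, against 63.4, 59.1, 61.0, 56.8 and 62.2 CPM in fed Plin2+/+ livers. Fasted and fed libraries did not overlap, and fasted Plin2+/+ replicates 2 and 3 were again the highest. Bnip3l rose, with log2 fold changes of 0.94 (SE 0.12, edgeR adjusted p = 3.17e-06) in Plin2-null and 1.12 (SE 0.12, edgeR adjusted p = 2.40e-07) in Plin2+/+ livers. On the TPM scale the ratio of Bnip3 to Bnip3l was 4.40 ± 0.237 in fasted and 2.31 ± 0.260 in fed Plin2-null livers, and 4.52 ± 0.330 in fasted and 2.52 ± 0.313 in fed Plin2+/+ livers (SD, n = 5 each), with no overlap between fasted and fed. Fundc1, the third mitophagy receptor, was low and not called, at 6.76 to 8.46 CPM in fasted and 6.92 to 9.60 CPM in fed Plin2-null livers and 8.29 to 10.9 CPM in fasted and 7.86 to 9.86 CPM in fed Plin2+/+ livers, with log2 fold changes of -0.01 (SE 0.12, edgeR adjusted p = 0.963) and 0.18 (SE 0.11, edgeR adjusted p = 0.226).

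**Figure D3:**
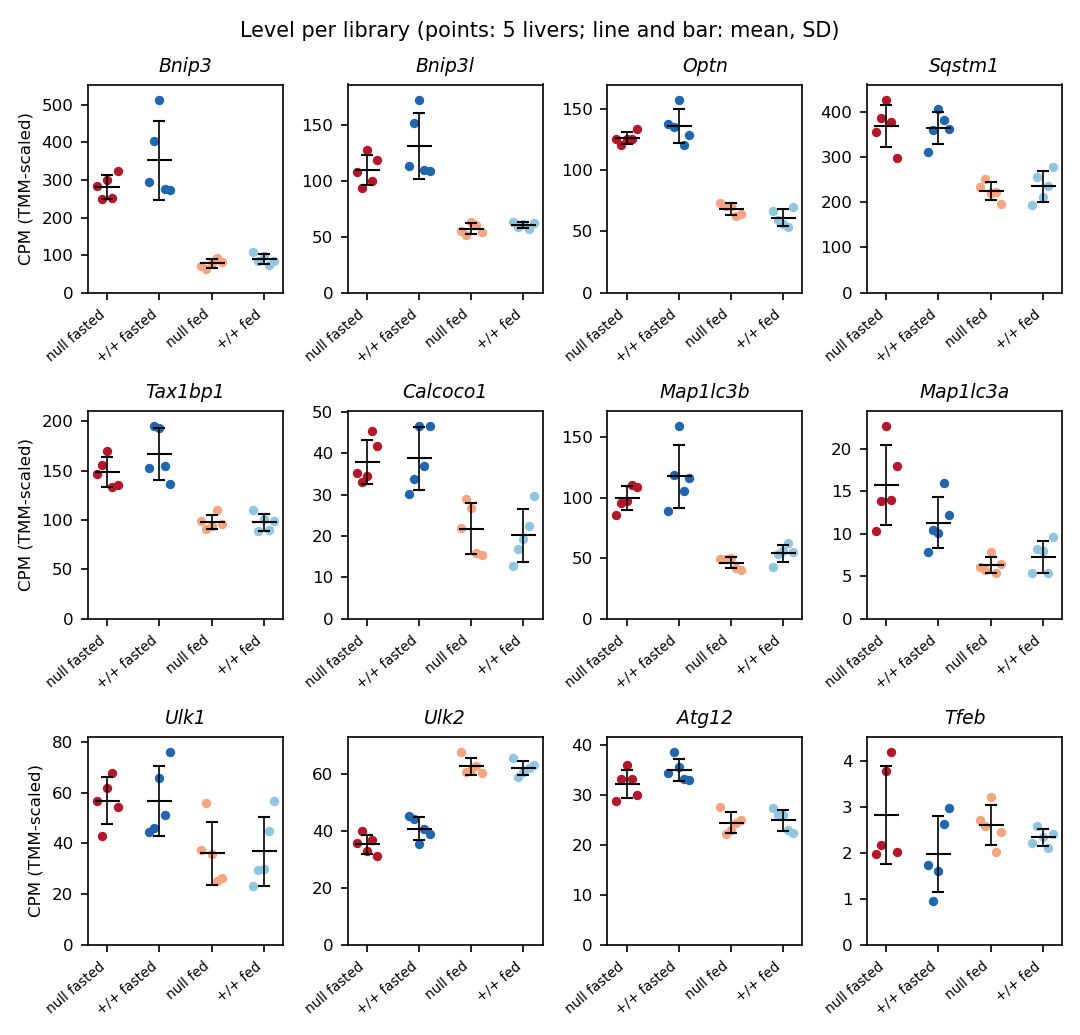
TMM-scaled CPM of 12 autophagy genes in each liver (vertical axes linear from 0). Points are the 5 livers of a group, and the line and bar give mean and SD. For Bnip3, Bnip3l, Optn, Sqstm1, Tax1bp1, Calcoco1, Map1lc3b and Atg12 every fasted point lies above every fed point of its genotype, and for Ulk2 below.

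Of the 2 transcription factors, 0 were called in Plin2-null livers and 1 in Plin2+/+ livers, where 36.1% and 42.6% of all tested genes were called. Tfeb, the regulator of lysosome and autophagy genes, is controlled mainly through its location in the cell. Tfeb had 1.96, 2.17, 3.77, 4.19 and 2.02 CPM in fasted Plin2-null livers, against 2.72, 2.58, 3.21, 2.02 and 2.45 CPM in fed Plin2-null livers. The Plin2+/+ values were 1.74, 0.939, 1.59, 2.61 and 2.97 CPM in fasted and 2.22, 2.57, 2.35, 2.11 and 2.41 CPM in fed livers. The groups overlapped throughout, and the fasted values spread more than the fed ones. Tfeb was not called, with log2 fold changes of 0.12 (SE 0.25, edgeR adjusted p = 0.750) in Plin2-null and -0.26 (SE 0.26, edgeR adjusted p = 0.444) in Plin2+/+ livers. Tfe3, which binds the same element, averaged 23.3 ± 2.67 CPM in fasted and 22.6 ± 0.819 CPM in fed Plin2-null livers, and 28.1 ± 2.25 CPM in fasted and 23.3 ± 2.32 CPM in fed Plin2+/+ livers (SD, n = 5 each). Its log2 fold change was 0.05 (SE 0.09, edgeR adjusted p = 0.728) in Plin2-null livers and, as a call, 0.27 (SE 0.09, edgeR adjusted p = 0.0214) in Plin2+/+ livers, lost without any 1 of fasted Plin2+/+ replicate 3 and fed Plin2+/+ replicates 3 and 5 (0.23 to 0.32, adjusted p up to 0.0656).

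In the fed state no autophagy gene differed detectably between Plin2-null and Plin2+/+ livers. Of the 40 members 0 were higher and 0 lower with edgeR, against 0.0123% and 0.00613% of all tested genes, or 0.0184% in all. DESeq2 called 0 members (0.0429% of all genes) and limma voom 0 (0.0245%), and 2 members had an unadjusted p under 0.05 (4.25% of all tested genes). Those were chosen after their values were seen: Gabarapl2, at 21.9 ± 1.58 CPM in fed Plin2-null and 26.8 ± 2.84 CPM in fed Plin2+/+ livers (SD, n = 5 each; log2 fold change -0.29, SE 0.10, edgeR adjusted p = 0.974), and Atg13, at 37.4 ± 8.45 CPM in fed Plin2-null and 44.9 ± 5.19 CPM in fed Plin2+/+ livers (log2 fold change -0.26, SE 0.12, edgeR adjusted p = 1.00). The log2 fold changes of all 40 lay between -0.29 and 0.19, with a median of -0.03.

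After fasting, 3 members were lower in Plin2-null than in Plin2+/+ livers and 0 were higher, against 1.73% of all tested genes called lower and 1.51% called higher, or 3.24% in all. These were Rb1cc1, Uvrag and Gabarapl1, and none of the 3 calls held under every alternative. Rb1cc1 had 56.3, 51.5, 53.6, 53.6 and 39.6 CPM in fasted Plin2-null livers, against 82.7, 92.1, 86.3, 64.5 and 60.6 CPM in fasted Plin2+/+ livers, without overlap (log2 fold change -0.60, SE 0.11, edgeR adjusted p = 0.0130). Uvrag had 17.8, 17.5, 18.9, 17.1 and 18.1 CPM in fasted Plin2-null livers, against 22.5, 25.0, 26.1, 20.5 and 19.0 CPM in fasted Plin2+/+ livers (log2 fold change -0.34, SE 0.09, edgeR adjusted p = 0.0474). Its ranges just failed to meet, the Plin2+/+ libraries being spread and the Plin2-null ones close together. Gabarapl1, whose values are given above, overlapped (log2 fold change -0.59, SE 0.16, edgeR adjusted p = 0.0481), with fasted Plin2-null replicates 2 and 4 on either side of the lowest Plin2+/+ library.

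The call of Rb1cc1 was lost without any 1 of fasted Plin2-null replicate 5 and fasted Plin2+/+ replicate 2 (-0.68 to -0.52 over single libraries left out, adjusted p up to 0.0520). For Uvrag it was lost without any 1 of 8 of the 10 fasted libraries, the exceptions being fasted Plin2+/+ replicates 4 and 5 (-0.40 to -0.29, adjusted p up to 0.142). For Gabarapl1 it was lost without any 1 of fasted Plin2-null replicates 1, 3 and 5 and fasted Plin2+/+ replicates 1, 2, 3 and 4 (-0.71 to -0.51, adjusted p up to 0.122). The 2 fasted Plin2+/+ libraries with the strongest trend towards low-GC genes, replicates 1 and 2, were left out together after the data were seen. Without both, the log2 fold changes were -0.47 for Rb1cc1 (GC content 39.1%), -0.29 for Uvrag (50.4%) and -0.54 for Gabarapl1 (52.7%), with edgeR adjusted p = 0.177, 0.322 and 0.298. With all 20 libraries kept and each library's trend with GC content removed, they were -0.46, -0.36 and -0.69, with adjusted p = 0.0147, 0.0381 and 0.0255.

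**Figure D4:**
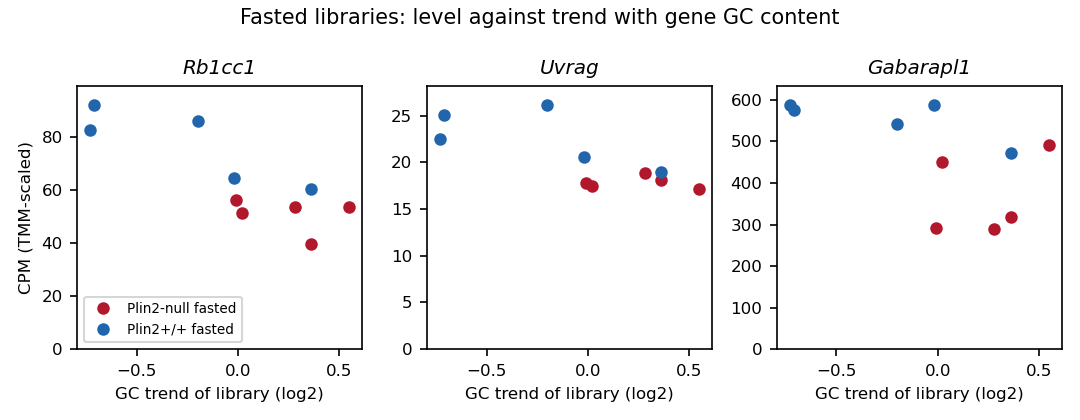
TMM-scaled CPM of Rb1cc1, Uvrag and Gabarapl1 in the 10 fasted livers (vertical axes, linear from 0) against each library's trend with gene GC content (horizontal axis: log2 level of high-GC minus low-GC genes, at the 95th and 5th percentiles of GC content). Red points are Plin2-null and blue points Plin2+/+ livers. Both Plin2+/+ libraries at -0.73 and -0.71 lie among the highest for Rb1cc1 and Gabarapl1, and the Plin2+/+ library at 0.36 is the lowest of its group for all 3 genes.

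The other 37 members did not pass. Of all 40 log2 fold changes 29 were negative, with a median of -0.10 (0.02 for all tested genes), and 15 had an unadjusted p under 0.05, against 24.3% of all tested genes. Besides Rb1cc1 and Uvrag, Atg14 (log2 fold change -0.55, SE 0.16, edgeR adjusted p = 0.0554) and Atg2b (log2 fold change -0.31, SE 0.09, edgeR adjusted p = 0.0516) had every fasted Plin2-null library below every fasted Plin2+/+ library, 4 members in all, against 2.21% of all tested genes, and 0 members lay wholly above (1.87%). Nbr1 stood at -0.29 (SE 0.09, edgeR adjusted p = 0.0720) and Tfe3 at -0.27 (SE 0.09, edgeR adjusted p = 0.0920). Values above 0 were led by Atg101 (log2 fold change 0.71, SE 0.24, edgeR adjusted p = 0.0942), Tfeb (log2 fold change 0.53, SE 0.26, edgeR adjusted p = 0.210) and Map1lc3a (log2 fold change 0.48, SE 0.21, edgeR adjusted p = 0.164). The GC content of Atg101, Tfeb and Map1lc3a is high, at 58.0%, 63.2% and 63.1%. The GC trend ran from -0.01 to 0.55 in fasted Plin2-null and from -0.73 to 0.36 in fasted Plin2+/+ libraries. The fit with each library's trend with GC content removed also covered these genes, and its values for them are not given here. The part of the GC trend in these values above 0 was not otherwise tested. Neutrophil markers summed to 4.52 to 8.37 CPM in fasted Plin2-null livers, against 2.36 to 3.04 CPM in fasted Plin2+/+ livers, and lymphocyte markers to 3.23 to 5.02 CPM, against 1.68 to 3.28 CPM. Of 8 hepatocyte markers 6 had negative log2 fold changes in this comparison (median -0.26) and 1 passed as lower. All 5 cholangiocyte markers had positive values (median 0.67) and 0 passed, and of 7 stellate markers 6 were positive (median 0.42) and 1 passed as higher. The part of these cell types in the lower autophagy genes was not tested.

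Whether fasting acted differently in the genotypes was tested as the interaction, the fasting log2 fold change in Plin2-null minus that in Plin2+/+ livers. No member passed with edgeR (0 of 40, against 0% of all tested genes), 6 had an unadjusted p under 0.05 (13.8% of all tested genes, close to the members' share), limma voom called 0 (0.0123% of all genes), and DESeq2 called 1 (0.380% of all genes), Rb1cc1, at -0.63 (DESeq2 adjusted p = 0.0456). In edgeR the difference for Rb1cc1 was -0.63 (SE 0.16, edgeR adjusted p = 0.215). The other 5 were Map1lc3a at 0.69 (SE 0.29, edgeR adjusted p = 0.313), Gabarapl1 at -0.54 (SE 0.23, edgeR adjusted p = 0.309), Atg10 at -0.49 (SE 0.19, edgeR adjusted p = 0.291), Atg7 at 0.44 (SE 0.17, edgeR adjusted p = 0.283) and Atg2b at -0.32 (SE 0.12, edgeR adjusted p = 0.283). The signed difference was below 0 for 25 of the 40 genes, among them Ulk2, which fell in both genotypes, with a median of -0.10 (0.02 for all tested genes). The difference was within 1 SE of 0 for Bnip3 (-0.11, SE 0.23), Map1lc3b (-0.02, SE 0.18) and Sqstm1 (0.08, SE 0.16), and was -0.27 (SE 0.13) for Optn. This test, fasting in Plin2+/+ livers and the genotype comparison after fasting share the 5 fasted Plin2+/+ libraries. Because no member passed the interaction with edgeR, the genes that passed as higher in Plin2+/+ livers alone are not shown to respond differently.

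Beyond the 40 genes, 95 further genes in 7 lists around the pathway were read the same way, and 94 could be tested. These lists too were chosen with earlier results of these data known. In Plin2-null livers 32 rose and 11 fell on fasting (18.0% and 18.1% of all tested genes), and in Plin2+/+ livers 31 rose and 13 fell (20.9% and 21.7%). Median log2 fold changes were 0.13 and 0.09. The count of each list stands against those same shares. Of 13 tested genes of autophagosome formation, 7 rose and 2 fell in Plin2-null livers, and 8 rose and 2 fell in Plin2+/+ livers. Tbk1, the kinase that phosphorylates OPTN and p62, rose by 0.32 (SE 0.07, edgeR adjusted p = 8.60e-04) and 0.53 (SE 0.07, edgeR adjusted p = 2.73e-06) on the log2 scale. Nrbf2, a subunit of the ATG14 complex, rose by 0.56 (SE 0.14, edgeR adjusted p = 0.00277) and 0.86 (SE 0.14, edgeR adjusted p = 3.23e-05), and Vmp1, a lipid scramblase of the endoplasmic reticulum, by 0.55 (SE 0.12, edgeR adjusted p = 0.00142) and 0.67 (SE 0.12, edgeR adjusted p = 1.61e-04), in Plin2-null and in Plin2+/+ livers. Of 14 fusion genes, 3 rose and 0 fell in Plin2-null livers, a share of rises near that of all genes (18.0%), and 1 rose and 2 fell in Plin2+/+ livers. Vps41, a subunit of the HOPS tethering complex, rose in both, by 0.54 (SE 0.08, edgeR adjusted p = 1.70e-05) and 0.50 (SE 0.08, edgeR adjusted p = 3.31e-05). The 5 genes listed as regulators of the lipid kinase or of beclin 1 were Rubcn, Rubcnl, Bcl2, Bcl2l1 and Mcl1. Of these, 0 rose and 2 fell in Plin2-null livers, and 1 rose and 1 fell in Plin2+/+ livers. Bcl2l1 (BCL-XL), which binds beclin 1, rose in Plin2+/+ livers by 0.34 (SE 0.12, edgeR adjusted p = 0.0251), a call lost without any 1 of fasted Plin2+/+ replicates 3 and 5 and fed Plin2+/+ replicates 1 and 4 (adjusted p up to 0.108), and was at 0.24 (SE 0.12, edgeR adjusted p = 0.125) in Plin2-null livers. Mcl1, an anti-apoptotic protein that also binds beclin 1, fell in Plin2-null livers, at -0.35 (SE 0.12, edgeR adjusted p = 0.0228), a call lost without any 1 of fasted Plin2-null replicate 5 and fed Plin2-null replicate 4 (adjusted p up to 0.0622), and was at 0.07 (SE 0.12, edgeR adjusted p = 0.660) in Plin2+/+ livers. Rubcn (rubicon) fell in both, at -0.42 (SE 0.14, edgeR adjusted p = 0.0216) and -0.37 (SE 0.14, edgeR adjusted p = 0.0321); the calls were lost without any 1 of fasted Plin2-null replicates 1 and 3 and without any 1 of fasted Plin2+/+ replicates 2 and 3 and fed Plin2+/+ replicate 5 (adjusted p up to 0.0604 and 0.0991).

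Of 13 receptors for the endoplasmic reticulum and further mitophagy receptors, 5 rose and 1 fell in Plin2-null livers, and 6 rose and 1 fell in Plin2+/+ livers, where 36.1% and 42.6% of all tested genes were called in either direction. Retreg1 (FAM134B), which shapes and delivers sheets of the endoplasmic reticulum, averaged 119 CPM in fasted and 53.7 CPM in fed Plin2-null livers, and 285 CPM in fasted and 55.3 CPM in fed Plin2+/+ livers. Retreg1 rose by 1.15 (SE 0.41, edgeR adjusted p = 0.0345) and 2.37 (SE 0.42, edgeR adjusted p = 2.10e-04) on the log2 scale, and the difference between the genotypes was -1.21 (SE 0.57, edgeR adjusted p = 0.358). The call in Plin2-null livers was lost without any 1 of fasted Plin2-null replicates 1 and 3 and fed Plin2-null replicates 1 and 5 (adjusted p up to 0.0934). Sec62, a receptor of the recovery phase after stress, rose by 0.44 (SE 0.10, edgeR adjusted p = 0.00207) and 0.52 (SE 0.10, edgeR adjusted p = 2.82e-04), and Bcl2l13, a mitophagy receptor, by 0.62 (SE 0.09, edgeR adjusted p = 1.71e-05) and 0.63 (SE 0.09, edgeR adjusted p = 1.00e-05), in Plin2-null and in Plin2+/+ livers.

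Upstream, of 20 genes that feed mTORC1 or belong to AMPK, 5 rose and 2 fell in Plin2-null livers (18.0% and 18.1% of all tested genes), and 5 rose and 4 fell in Plin2+/+ livers (20.9% and 21.7%), close to the shares of all genes in Plin2+/+ livers. The 2 sestrins of that list that were called in both genotypes parted: Sesn2, a stress-induced inhibitor of mTORC1 that senses leucine, rose by 1.37 (SE 0.23, edgeR adjusted p = 9.93e-05) and 1.36 (SE 0.23, edgeR adjusted p = 7.54e-05), and Sesn3 had log2 fold changes of -0.97 (SE 0.16, edgeR adjusted p = 6.82e-05) and -0.71 (SE 0.16, edgeR adjusted p = 0.00121), lower in both. Mtor, the kinase itself, rose by 0.71 (SE 0.11, edgeR adjusted p = 4.47e-05) and 0.60 (SE 0.11, edgeR adjusted p = 2.36e-04), and so did Rheb, its activating GTPase, by 0.43 (SE 0.11, edgeR adjusted p = 0.00362) and 0.68 (SE 0.11, edgeR adjusted p = 3.17e-05). Of 9 genes for RAG GTPases, the folliculin complex and other MiT factors, 3 rose and 0 fell in each genotype, against 18.0% of all tested genes that rose in Plin2-null and 20.9% in Plin2+/+ livers. Fnip1, the partner of folliculin, had 44.7 CPM in fasted and 34.7 CPM in fed Plin2-null livers, and 66.3 CPM in fasted and 33.1 CPM in fed Plin2+/+ livers. Its log2 fold changes were 0.36 (SE 0.13, edgeR adjusted p = 0.0384) and 1.00 (SE 0.14, edgeR adjusted p = 4.19e-06). Its rise in Plin2-null livers did not pass without any 1 of fasted Plin2-null replicates 1, 2, 3 and 4 and fed Plin2-null replicates 1, 2 and 5 (adjusted p up to 0.102).

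Of 20 lysosome genes that TFEB is known to regulate, 9 rose and 4 fell in Plin2-null livers (18.0% and 18.1% of all tested genes), and 7 rose and 3 fell in Plin2+/+ livers (20.9% and 21.7%), so that the falls were close to or under the share of all genes. The medians were 0.16 and 0.05 on the log2 scale. Psap (prosaposin, the source of activators of sphingolipid breakdown) rose by 0.90 (SE 0.11, edgeR adjusted p = 1.34e-06) and 0.59 (SE 0.11, edgeR adjusted p = 1.51e-04), and Ctsf, the gene of a lysosomal cysteine protease, by 0.71 (SE 0.10, edgeR adjusted p = 1.13e-05) and 0.74 (SE 0.10, edgeR adjusted p = 4.71e-06), in Plin2-null and in Plin2+/+ livers. Ctsb, the gene of cathepsin B, went the other way, with 385 CPM in fasted and 506 CPM in fed Plin2-null livers and 345 CPM in fasted and 554 CPM in fed Plin2+/+ livers. Its log2 fold changes were -0.39 (SE 0.12, edgeR adjusted p = 0.0136) and -0.68 (SE 0.12, edgeR adjusted p = 9.79e-05). Kupffer cells are rich in lysosomes, and their markers summed to 286 to 364 CPM in fasted and 297 to 708 CPM in fed Plin2-null livers, and to 203 to 366 CPM in fasted and 379.8 to 503 CPM in fed Plin2+/+ livers; their part in these values was not tested. Between genotypes, 0 of the 94 genes passed in the fed state and 0 in the interaction with edgeR, DESeq2 or limma voom, and 2 and 11 had an unadjusted edgeR p under 0.05 (4.25% and 13.8% of all tested genes). In the fasted state 3 were lower in Plin2-null livers and 0 higher, against 1.73% and 1.51% of all tested genes: Fnip1 (log2 fold change -0.57, SE 0.13, edgeR adjusted p = 0.0300), Mcl1 (log2 fold change -0.44, SE 0.12, edgeR adjusted p = 0.0443), and Trappc8, a subunit of a trafficking complex needed for ATG9 transport (log2 fold change -0.41, SE 0.11, edgeR adjusted p = 0.0423). These 3 calls were lost without any 1 of fasted Plin2-null replicates 3 and 5 and fasted Plin2+/+ replicates 1, 2 and 3 for Fnip1, without any 1 of fasted Plin2-null replicates 1, 3, 4 and 5 and fasted Plin2+/+ replicates 1, 2 and 3 for Mcl1 and without any 1 of fasted Plin2-null replicates 1, 3 and 5 and fasted Plin2+/+ replicates 1, 2 and 3 for Trappc8 (adjusted p up to 0.0998, 0.133 and 0.119).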

How the data were processed

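Messenger RNA of 20 livers was sequenced, with strand-specific TruSeq libraries per the labels. The authors deposited 1 table of raw counts per gene (55487 rows) and 1 of TPM values (55493 rows). HISAT2 (version given as 1.2.1) and featureCounts 1.4.6-p1 are named in the submitters' processing notes, which also name GRCh38 although the gene identifiers are mouse; neither the strand setting nor the way the authors derived TPM is stated in the sources used here. In 7109 genes with 200 or more counts, each of the 20 TPM columns matched its own count column best. Symbols and positions came from GENCODE M21 (GRCm38), which matched 55141 identifiers. Libraries were grouped by the sample label, which gives genotype and feeding state for Plin2+/+ libraries. For Plin2-null libraries it gives the feeding state alone, and their genotype was read from the design text. Replicate numbers only name samples. No pair of libraries of a group agreed within sampling noise (smallest chi-square per degree of freedom 45.3). Each library is labelled as its own liver tissue sample and was taken as 1 liver. The labels do not name the animals, so p-values cover the spread between these samples, which may be technical in part.

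Counts were fitted for all 4 groups together with edgeR 4.0.16 (TMM scaling, filterByExpr, robust quasi-likelihood test, 1 coefficient per group; R 4.3.3), with Benjamini-Hochberg adjustment over all 16312 genes tested and a threshold of 0.05. The standard error is the log2 fold change divided by the square root of F. The procedure was tested on simulated counts, with known changes placed in fasted Plin2+/+ libraries alone. No library trend with GC content was simulated, so calls that depend on it were not addressed. CPM values are TMM-scaled. Alternatives were DESeq2 1.42.0, limma 3.58.1 (voom, log2(TPM + 1) and log2(TPM + 0.1)), other scalings and filters, the compared groups alone, removal of each library's GC trend, and leaving out each library. Figures were drawn with matplotlib 3.10.9. All 40 members could be named; of the other lists, genes called on fasting (at most 4 per list and genotype, by adjusted p) and genes called between genotypes. The members and lists were chosen with earlier results of these data known. The comparison of ATG8 protein sequences was not run, as no protein table was used here.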

Additional observations from a re-analysis of the deposited data

Results flagged for a closer look

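In 6 of 160 groups of 5 livers (40 genes in 4 groups), 1 library stood apart from the other 4 by Dixon's criterion (gap over range above 0.71), and chance flags about 1 in 20 groups. Rb1cc1 was lowest in fasted Plin2-null replicate 5, at 39.6 CPM, against 51.5 to 56.3 CPM in the other 4. The same library was lowest for Atg2b, at 36.1 CPM against 42.6 to 43.7 CPM. Wipi1 was highest in fasted Plin2+/+ replicate 3, at 45.2 CPM against 13.5 to 21.6 CPM, and its fasting call in that genotype was lost without this library. In fed Plin2-null livers Atg4a was highest in replicate 4, at 15.4 CPM against 11.0 to 11.9 CPM, Atg7 in replicate 2, at 31.5 CPM against 24.6 to 26.3 CPM, and Gabarapl2 in replicate 1, at 24.6 CPM against 20.8 to 21.9 CPM.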

How the results depend on the processing

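No called value of a member changed direction under any alternative run. The 17 members higher on fasting in Plin2-null livers became 10 with library size alone and 7 with limma on log2(TPM + 1) or log2(TPM + 0.1), and the 23 in Plin2+/+ livers became 14, 10 and 10. The 3 lower in Plin2+/+ livers became 5 with library size alone or the stricter filter (at least 1 CPM in 5 libraries), 1 without both fasted Plin2+/+ libraries of lowest GC trend, and 1 to 5 with single libraries left out. The 1 lower in Plin2-null livers became 2 with DESeq2 or the stricter filter, 5 with library size alone, 3 with the GC trend removed, 6 with limma on log2(TPM + 1) or log2(TPM + 0.1), 3 on TMM-scaled TPM, and 1 to 2 with single libraries left out. All genes moved too: of 16312 tested, 2942 rose and 2954 fell in Plin2-null livers, against 1376 and 4243 with library size alone, and 969 and 4265 of 16032 on log2(TPM + 1); in Plin2+/+ livers 3416 and 3541 became 1854 and 4173, and 1533 and 3289. After fasting, the 3 members lower in Plin2-null than in Plin2+/+ livers became 8 with DESeq2, 5 with RLE scaling or the GC trend removed, 1 with library size alone, 0 with the compared groups alone, with limma on either TPM scale or without both libraries of lowest GC trend, and 0 to 6 with single libraries left out; the 0 higher became up to 2, Atg101 and Atg7, without fasted Plin2+/+ replicate 5. Over all genes the 282 lower became 786 with DESeq2, 368 with RLE scaling, 277 with the GC trend removed, 38 with library size alone, 53 with the compared groups alone, 9 on log2(TPM + 1) and 2 without both libraries, and the 246 higher became 1033 without fasted Plin2+/+ replicate 5. In the interaction the 0 lower became 1 with DESeq2. The cause of these changes was not tested. For single members over all alternatives, 54 fasting values in Plin2-null and 106 in Plin2+/+ livers no longer passed, 22 and 20 newly passed, and 764 and 754 kept their side of the threshold; between genotypes after fasting the numbers were 32, 21 and 827. The TMM-scaled TPM and the removal of both libraries were chosen after seeing the data. No paired analysis was possible because the labels give no replicate numbers shared between groups. Tfeb and Atg10 had the lowest CPM of the 40 members, and their SE (0.25 and 0.14 on the log2 scale in Plin2-null livers) limits the changes that could be called.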
